A study of Mus musculus with 8 samples.

Results

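Transcript levels of 10 genes whose proteins build or populate cholesterol-rich membrane domains were examined in infarcts of aged mice. They were chosen by name, and all 10 were found among the 46078 gene identifiers of the count tables and were tested. They comprise the caveolins *Cav1* and *Cav2*, the cavins *Cavin1*, *Cavin2* and *Cavin3*, the flotillins *Flot1* and *Flot2*, the raftlin *Rftn1*, and the tetraspan membrane protein genes *Pmp22* and *Mal2*. All 8 animals were C57BL/6J wild-type male mice aged 18 months that had undergone DH stroke, in which distal middle cerebral artery occlusion is followed by hypoxia and leaves an infarct in the cortex. From 1 week after stroke they were injected subcutaneously, 3 times a week over 6 weeks, with PBS in 4 animals (vehicle) and with HPβCD at 4 g/kg in the other 4. HPβCD, or 2-hydroxypropyl-β-cyclodextrin, is a ring of sugars that carries cholesterol in its cavity. Infarcts were collected 7 weeks after stroke. They were recognized by eye and dissected by hand, so the share of neighboring tissue in a piece was not fixed. No sham or uninjured tissue entered the comparison.

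Membrane rafts are assemblies of cholesterol, sphingolipids and proteins in the plasma membrane. Caveolae are flask-shaped pits of such membrane and are abundant in endothelial cells, smooth muscle, pericytes and fibroblasts. Caveolins insert into the inner leaflet and bind cholesterol, cavins form the coat around the pit, and the ATPase EHD2 holds its neck. Flotillins mark flat raft domains in most cell types. Raftlin is a raft-linker protein first described in B lymphocytes, PMP22 is a component of peripheral myelin that is also made by fibroblasts, and MAL2 sorts proteins to the apical membrane of epithelial cells and is also found in neurons. Extraction of cholesterol from cells by cyclodextrins is a common laboratory means of disturbing rafts and caveolae. These statements are background and were not measured here.

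Levels are given as CPM, the counts of a gene scaled to a common library total after correction by TMM, a factor that aligns libraries on the bulk of their genes. Library totals ranged from 16.6 M to 32.9 M gene counts, and each of the 10 genes had at least 133 counts in each library. Vehicle animals 1 and 3 stood apart from the other libraries in neuronal transcripts. The summed level of 10 neuron markers was 1047 CPM in the former and 6137 CPM in the latter, against 42.6 and 20.4 CPM in vehicle animals 2 and 4 and 8.64 to 86.9 CPM in HPβCD animals. The fold changes of the 10 genes and of the wider lists were therefore also computed without these 2 animals, a choice made with their marker levels known. The ratios, correlations and marker sums were not. In tissue of this kind, fewer cells of a type and less RNA per cell cannot be told apart.

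Of the 10 genes, 8 had a positive and 2 a negative log2 fold change, HPβCD against vehicle. Their median log2 fold change was 0.32, beside -0.05 over all 14736 tested genes, of which 45.9% were higher after HPβCD. None of the 10 passed an adjusted p of 0.05 by edgeR (quasi-likelihood test, Benjamini-Hochberg adjusted), which called 287 of all tested genes (1.95%). At an unadjusted p of 0.05 edgeR passed 4 of them, *Cavin1*, *Rftn1*, *Pmp22* and *Mal2*, beside 27.8% of all tested genes. DESeq2, the tool used in the study, called these 4 genes at an adjusted p of 0.05, with 3 higher and 1 lower after HPβCD. It called 17.5% of the genes to which it gave an adjusted p. Levels of the groups did not overlap for 3 genes, *Cavin1*, *Rftn1* and *Pmp22*, and this held for 16.8% of all tested genes. limma-voom with sample quality weights called 6 of the 10 and 22.1% of tested genes. It called *Cavin3*, *Flot1* and *Flot2* in addition to *Cavin1*, *Rftn1* and *Pmp22*, and not *Mal2*.

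**Figure D1:**
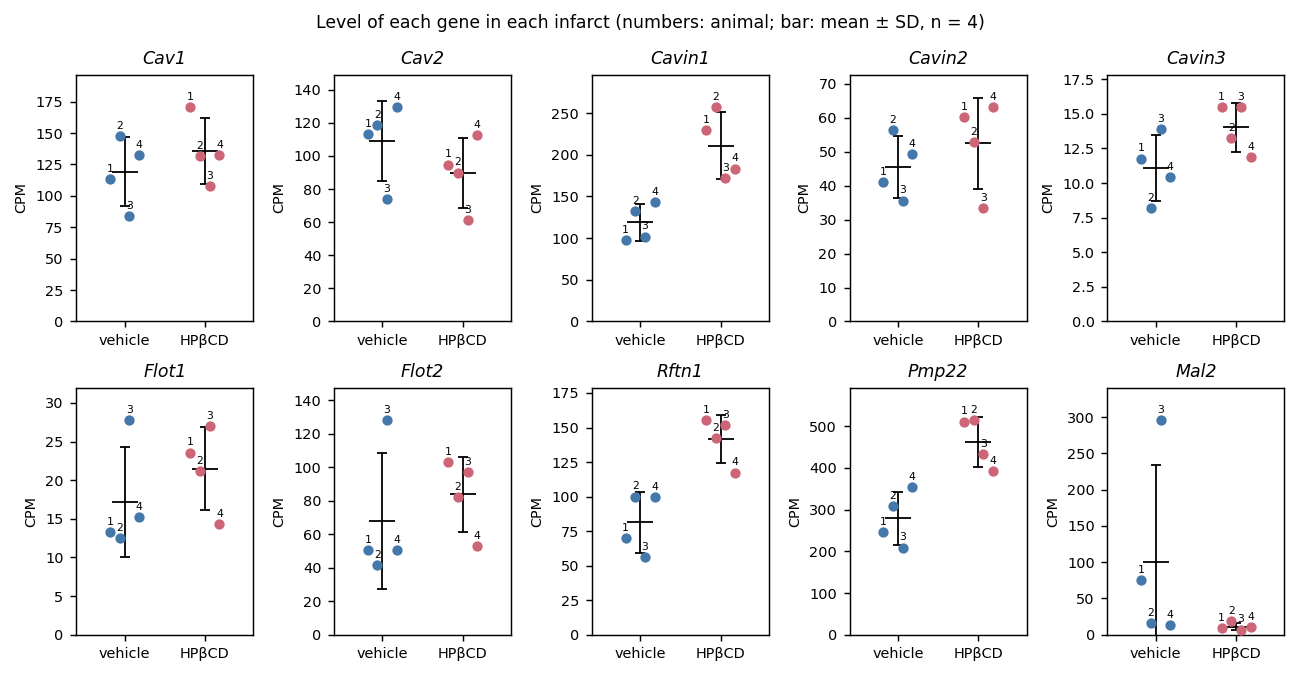
Level of each of the 10 genes in each infarct, in CPM on linear axes that start at 0, with vehicle animals in blue and HPβCD animals in red. Numbers are animal numbers, and horizontal bars with whiskers are the mean ± SD (n = 4). The groups do not overlap for *Cavin1*, *Rftn1* and *Pmp22*, and the *Mal2* level of vehicle animal 3 (296 CPM) stretches its axis. The lower whisker of *Mal2* in vehicle would extend below 0 and stops at the axis.

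The caveolins were examined first. *Cav1* (ENSMUSG00000007655, GRCm38 chromosome 6, 17306335 to 17341452, plus strand) encodes caveolin-1, the structural protein without which most cells form no caveolae. *Cav2* (ENSMUSG00000000058, chromosome 6, 17281185 to 17289115, plus strand) encodes its partner caveolin-2. The genes are neighbors, 17.2 kb apart with 0 annotated genes between them. *Cav1* measured 113, 147, 83.7 and 132 CPM in vehicle animals 1 to 4, and 171, 132, 108 and 132 CPM in HPβCD animals 1 to 4. The groups overlapped almost completely, with vehicle animal 3 lowest and HPβCD animal 1 highest. By edgeR the difference on the log2 scale was 0.19 (SE 0.21; adjusted p = 0.603), and it was -0.03 without vehicle animals 1 and 3. *Cav2* measured 113, 118, 74.0 and 130 CPM in vehicle animals and 94.8, 89.9, 61.3 and 112 CPM in HPβCD animals. Its group mean was lower after HPβCD, and the groups overlapped because vehicle animal 3 was lower than 3 of the 4 HPβCD animals. edgeR put the log2 fold change at -0.28 (SE 0.23; adjusted p = 0.464). Without vehicle animals 1 and 3 it was -0.46 (SE 0.21; adjusted p = 0.249), and the 2 remaining vehicle animals were then above all HPβCD animals.

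The ratio of *Cav1* to *Cav2* counts within a library needs no scaling between libraries. It was 0.997, 1.25, 1.13 and 1.02 in vehicle animals and 1.80, 1.47, 1.76 and 1.17 in HPβCD animals. HPβCD animal 4 fell within the vehicle range and the other 3 were above it, with a mean difference of 0.48 on the log2 scale. The annotated starts of these neighbors are shown because the pair is the only one among the 10 genes that adjoins, and its members had group means of opposite direction. For each gene the 250 bases before the RefSeq start on GRCm38.p6 that matches the annotated gene start are given. They are on the plus strand, 5′ to 3′. The window of *Cav1* is chr6:17306085-17306334 and that of *Cav2* is chr6:17280935-17281184. Capitals mark matches on either strand. The letters searched were GGGCGG for the GC box. For the CCAAT box they were those of its name, and for the TATA box they were TATAAA. The core of sterol elements was searched as CACCCCAC, and neither window held it. The E box was searched as CACGTG and was also absent from both.
Cav1: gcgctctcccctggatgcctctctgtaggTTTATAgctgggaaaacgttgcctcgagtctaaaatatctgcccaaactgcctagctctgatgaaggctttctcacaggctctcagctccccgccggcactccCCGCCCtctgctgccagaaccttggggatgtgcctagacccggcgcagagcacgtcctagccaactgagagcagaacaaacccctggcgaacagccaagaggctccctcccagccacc
Cav2: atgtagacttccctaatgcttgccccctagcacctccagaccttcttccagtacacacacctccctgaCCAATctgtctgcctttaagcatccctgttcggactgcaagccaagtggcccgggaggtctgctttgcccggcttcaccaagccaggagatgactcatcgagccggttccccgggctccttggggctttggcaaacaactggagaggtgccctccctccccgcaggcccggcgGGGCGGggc
The *Cav1* window shown held a GC box on the reverse strand at -118 and a TATA box on the reverse strand at -221, counted from the start to the first base of the match. *Cav1* has a further RefSeq start at 17307640, whose window is not shown and held none of the motifs searched. The *Cav2* window held a GC box at -9 and a CCAAT box at -182, both on the forward strand. Among 32851 mouse windows of this length, 32.7% held the GC box, 33.8% the CCAAT box, 12.4% the TATA box, 2.58% the sterol core and 6.02% the E box, so the GC and CCAAT matches were common letters. A match is a description of the sequence and not a site of binding.

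*Cavin1* (ENSMUSG00000004044, chromosome 11, 100956733 to 100970887, minus strand) encodes the coat protein that caveolin-1 needs to form a pit. It measured 98.0, 133, 102 and 143 CPM in vehicle animals 1 to 4. In HPβCD animals it measured 230.0, 258, 172 and 183 CPM. All 4 HPβCD animals were above all 4 vehicle animals, and the mean was 1.77 times the vehicle mean (119 ± 22.5 against 211 ± 40.1 CPM, SD, n = 4 each). This was 0.82 on the log2 scale (SE 0.19), with an adjusted p of 0.0599 by edgeR and 0.00357 by DESeq2. Without vehicle animals 1 and 3 it was 0.62 (SE 0.19), with adjusted p-values of 0.124 by edgeR and 0.0338 by DESeq2.

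*Cavin2* and *Cavin3* had smaller differences over all 8 animals. *Cavin2* (ENSMUSG00000045954, chromosome 1, 51289126 to 51302960, plus strand), a coat protein prominent in endothelium, measured 41.1, 56.3, 35.6 and 49.3 CPM in vehicle and 60.2, 52.9, 33.5 and 63.2 CPM in HPβCD animals. The lowest value of all 8 libraries was that of HPβCD animal 3, and the groups overlapped. Its difference of 0.20 on the log2 scale (SE 0.23; adjusted p = 0.61 by edgeR) was 0.00 without vehicle animals 1 and 3. *Cavin3* (ENSMUSG00000037060, chromosome 7, 105480083 to 105482300, minus strand), a cavin that binds protein kinase C delta, measured 11.8, 8.21, 13.9 and 10.4 CPM in vehicle and 15.5, 13.2, 15.5 and 11.9 CPM in HPβCD animals. Vehicle animal 3 lay among the HPβCD animals, and edgeR gave a log2 fold change of 0.34 (SE 0.20, adjusted p = 0.292). Its log2 fold change without vehicle animals 1 and 3 was 0.61 (SE 0.20; adjusted p = 0.142 by edgeR and 0.0808 by DESeq2), close to the 0.62 of *Cavin1* in the same comparison. The value of *Cavin3* is less certain than the others, because 22.5% of its exon length overlaps *Gm45667* on the opposite strand and the strand option of the counting was not stated.

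Ratios within a library set *Cavin1* against the other coat genes. The ratio of *Cavin1* to *Cav1* was 0.867, 0.900, 1.22 and 1.09 in vehicle animals and 1.35, 1.95, 1.59 and 1.39 in HPβCD animals. The groups did not overlap, with a mean difference of 0.62 on the log2 scale. *Cavin1* levels alone did not overlap either, so this separation is not independent of them. The share of all gene pairs that separate in this way was not computed. The ratio of *Cavin1* to *Cavin2* was 2.38, 2.36, 2.86 and 2.91 in vehicle animals and 3.82, 4.87, 5.13 and 2.90 in HPβCD animals. HPβCD animal 4 lay just below the highest vehicle animal, and the other 3 were above all of them (mean difference 0.64 on the log2 scale). These ratios alone show an unequal difference of 2 genes and not which of them changed. The log2 fold changes of the levels were 0.82 for *Cavin1*, 0.19 for *Cav1* and 0.20 for *Cavin2*. Of these only *Cavin1* had levels that did not overlap between the groups.

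**Figure D2:**
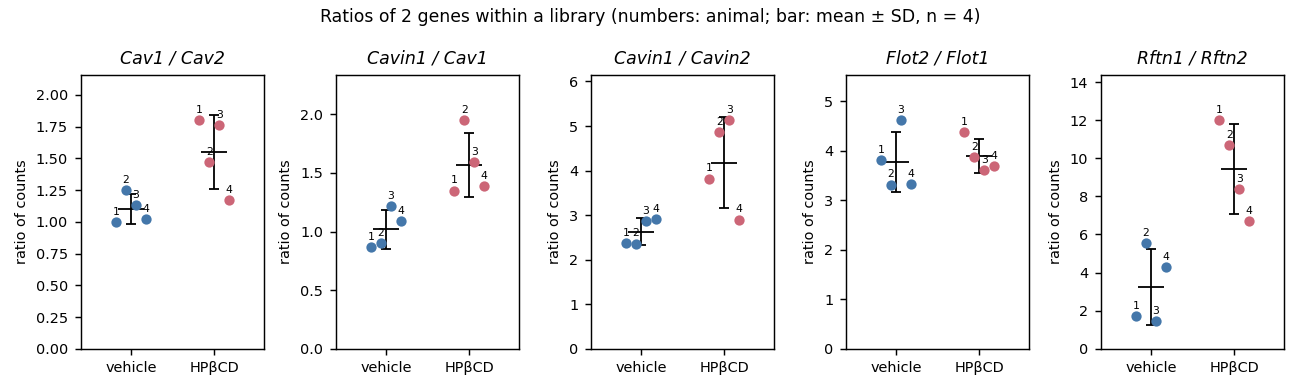
Ratio of the counts of 2 genes within each library, vehicle in blue and HPβCD in red, on linear axes that start at 0. Numbers are animal numbers, and bars with whiskers are the mean ± SD (n = 4). The groups do not overlap for *Cavin1* to *Cav1* and for *Rftn1* to *Rftn2*, whereas the ratio of the flotillins is near 3.8 in both groups. For *Rftn1* to *Rftn2* the separation follows from the levels of both genes, which do not overlap and differ in opposite directions. For *Cavin1* to *Cav1* it is not independent of the *Cavin1* levels, which do not overlap on their own.

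*Flot1* (ENSMUSG00000059714, chromosome 17, 35823230 to 35832791, plus strand) and *Flot2* (ENSMUSG00000061981, chromosome 11, 78037931 to 78060434, plus strand) encode the partners that assemble into flotillin domains. *Flot1* measured 13.2, 12.5, 27.8 and 15.2 CPM in vehicle and 23.6, 21.2, 27.0 and 14.3 CPM in HPβCD animals. *Flot2* measured 50.5, 41.7, 128 and 50.7 CPM in vehicle and 103, 82.2, 97.4 and 52.8 CPM in HPβCD animals. For both genes vehicle animal 3 was the highest of all 8, and the other 3 vehicle animals were below HPβCD animals 1 to 3. HPβCD animal 4 was close to the lower vehicle animals in both. In edgeR *Flot1* had a log2 fold change of 0.32 (SE 0.30, adjusted p = 0.527) and *Flot2* one of 0.31 (SE 0.38, adjusted p = 0.646). Without vehicle animals 1 and 3 the value for *Flot2* was 0.88 (SE 0.26), with an adjusted p of 0.123 by edgeR and 0.0141 by DESeq2, and that for *Flot1* was 0.65 (adjusted p = 0.187 by edgeR and 0.11 by DESeq2). The genes lie on different chromosomes, and their log2 CPM had a Pearson r of 0.98 over the 8 libraries. The ratio of *Flot2* to *Flot1* was 3.77 ± 0.61 in vehicle and 3.89 ± 0.343 in HPβCD animals (SD, n = 4 each), and the groups overlapped.

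*Rftn1* (ENSMUSG00000039316, chromosome 17, 49992257 to 50190674, minus strand) encodes raftlin, which serves B cell receptor signaling and the uptake of a Toll-like receptor ligand in other cells. The study named *Rftn1*, *Pmp22* and *Mal2* from these same samples, so their directions are not independent of that choice. *Rftn1* measured 70.1, 99.9, 56.0 and 99.4 CPM in vehicle animals. In HPβCD animals it measured 155, 142, 151 and 117 CPM. Each HPβCD animal was above each vehicle animal, with vehicle animals 1 and 3 lowest. Its log2 fold change was 0.80 (SE 0.21), with an adjusted p of 0.0692 by edgeR and 0.0111 by DESeq2. It was 0.52 (SE 0.15) without vehicle animals 1 and 3, where the adjusted p-values were 0.12 and 0.0348, and the groups still did not overlap. Its relative *Rftn2* was lower after HPβCD, at 40.8, 18.1, 38.3 and 23.1 CPM in vehicle and 12.9, 13.2, 18.0 and 17.5 CPM in HPβCD animals (log2 fold change -0.96, SE 0.28; adjusted p = 0.0824 by edgeR and 0.0209 by DESeq2). *Rftn2* was chosen for naming after its values were seen. The highest *Rftn2* levels were those of vehicle animals 1 and 3, and its log2 fold change without them was -0.40. The ratio of *Rftn1* to *Rftn2* was 1.72, 5.53, 1.46 and 4.30 in vehicle and 12.0, 10.7, 8.40 and 6.69 in HPβCD animals, groups that did not overlap. This separation was fixed by the levels and is no further result. Neither gene overlapped between the groups, and they differed in opposite directions.

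*Pmp22* (ENSMUSG00000018217, chromosome 11, 63128982 to 63159547, plus strand) was the most abundant of the 10 genes, and only 2.34% of all tested genes had a higher mean level. It measured 246, 308, 209 and 353 CPM in vehicle animals. In HPβCD animals it measured 511, 515, 433 and 391 CPM, all above the vehicle animals. The mean was 1.66 times that of vehicle (279 ± 64.2 against 462 ± 60.5 CPM, SD, n = 4 each). The log2 fold change was 0.73 (SE 0.20), with an adjusted p of 0.0732 by edgeR and 0.0108 by DESeq2. Without vehicle animals 1 and 3 it was 0.50 (SE 0.17), with adjusted p-values of 0.148 and 0.0599, so the DESeq2 call was lost. *Pmp22* is transcribed from several starts, which counts per gene do not separate. The first of its RefSeq windows, 250 bases at chr11:63128732-63128981 on the plus strand, is shown with the same motifs in capitals because *Pmp22* had the highest level.
Pmp22: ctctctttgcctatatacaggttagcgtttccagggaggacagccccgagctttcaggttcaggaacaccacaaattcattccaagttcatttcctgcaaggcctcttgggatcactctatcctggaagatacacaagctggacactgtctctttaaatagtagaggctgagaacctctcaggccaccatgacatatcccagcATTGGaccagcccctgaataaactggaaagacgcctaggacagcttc
It held a CCAAT box on the reverse strand at -47 and none of the other motifs searched. The *Pmp22* windows before the starts at 63131457 and 63132803, not shown, each held 3 GC boxes, and the former also a CCAAT box. That before 63132569 held none of the motifs. Which start was used in these infarcts was not measured. RefSeq windows were found for 7 of the 10 genes, namely *Cav1*, *Cav2*, *Cavin1*, *Cavin2*, *Flot2*, *Rftn1* and *Pmp22*, and no window held the sterol core or the E box.

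*Mal2* (ENSMUSG00000024479, chromosome 15, 54571192 to 54602847, plus strand) varied most. It measured 75.8, 15.8, 296 and 13.0 CPM in vehicle animals 1 to 4, a range of 22.7-fold. In HPβCD animals it measured 8.68, 18.6, 7.14 and 10.8 CPM, a range of 2.60-fold. Vehicle animals 2 and 4 lay within the HPβCD range, and the high values were those of vehicle animals 1 and 3. On the log2 scale the difference was -3.15 (SE 1.05), with an adjusted p of 0.109 by edgeR and 0.00202 by DESeq2. Without these 2 animals it was -0.34 (SE 0.34), with adjusted p-values of 0.585 and 0.603, so the DESeq2 call was lost. Vehicle animals 1 and 3 were also the libraries with the highest neuron marker sums, given above. All 8 tested neuron markers were lower in the HPβCD mean, among them the synaptic genes *Snap25* (2.74 to 3023 CPM in vehicle, 0.919 to 29.9 CPM in HPβCD) and *Syt1* (4.14 to 1616 and 0.613 to 28.1 CPM). Of the 8, 4 were higher and 4 lower without vehicle animals 1 and 3, with log2 fold changes of 0.45 for *Snap25* and 0.05 for *Syt1*. Epithelial and choroid plexus markers, the other cell types in which MAL2 is known, summed to 55.3 to 70.8 CPM in vehicle and 61.0 to 82.2 CPM in HPβCD animals, mostly *Cdh1*. Members of this list differed in direction. *Epcam*, named after its values were seen, was lower at 2.04 to 3.39 CPM in vehicle and 0.613 to 1.45 CPM in HPβCD animals (log2 fold change -1.51; adjusted p = 0.0565 by edgeR and 0.00365 by DESeq2). *Clic6* was higher at 2.97 to 7.31 and 8.32 to 14.6 CPM (1.08; adjusted p = 0.0824 by edgeR and 0.0137 by DESeq2). *Krt8* and *Krt18* were below 1 CPM in all 8 libraries.

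**Figure D3:**
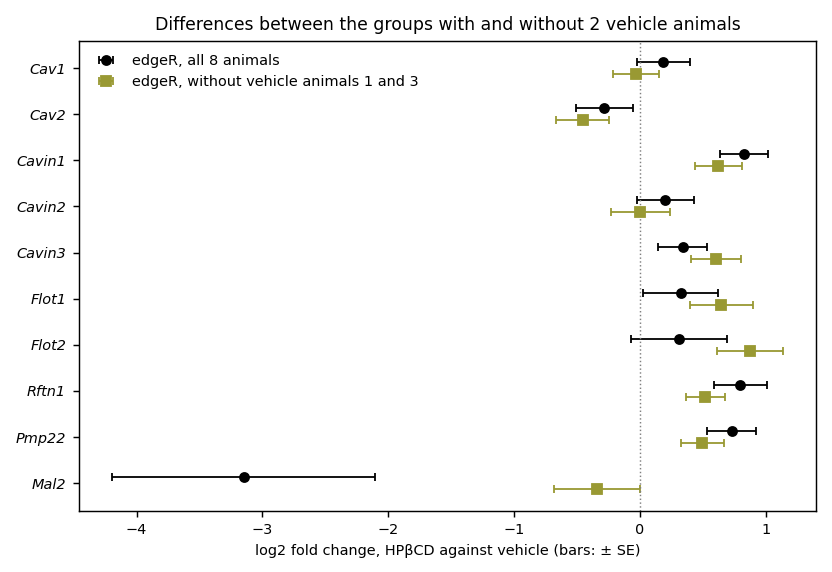
Log2 fold change of HPβCD against vehicle for the 10 genes, with bars of ± SE, from edgeR on all 8 animals (black circles) and without vehicle animals 1 and 3 (olive squares). *Mal2* moves from -3.15 to -0.34, *Flot2* moves from 0.31 to 0.88, and *Cav1* and *Cavin2* lie at about 0 without those animals.

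Without vehicle animals 1 and 3, DESeq2 called 3 of the 10 genes, *Cavin1*, *Flot2* and *Rftn1*, all higher after HPβCD, beside 8.56% of the genes with an adjusted p. The groups then did not overlap for 6 genes, beside 32.9% of tested genes. These were *Cavin1*, *Cavin3*, *Flot2*, *Rftn1* and *Pmp22*, which were higher, and *Cav2*, which was lower. The same 6 did not overlap when vehicle animal 3 alone was left out, beside 24.6% of tested genes. edgeR called 0 of the 10 in this comparison too, beside 1.34% of tested genes. At an unadjusted p of 0.05 it passed 6 of them, *Cavin1*, *Cavin3*, *Flot1*, *Flot2*, *Rftn1* and *Pmp22*, beside 21.5% of tested genes.

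Per kilobase of exon, *Pmp22* had the highest level in both groups, 118 ± 27.3 CPM per kb in vehicle and 196 ± 25.7 CPM per kb in HPβCD animals (SD, n = 4 each). In vehicle it was followed by *Cav1* (34.6 ± 7.98), *Mal2* (34.0 ± 45.3), *Cavin1* (33.2 ± 6.27) and *Cav2* (32.6 ± 7.26 CPM per kb), whose differences from each other were smaller than their spread. The place of *Mal2* rests on vehicle animals 1 and 3, since it was at 5.35 and 4.41 CPM per kb in vehicle animals 2 and 4, near *Flot1* and *Cavin3*. *Flot2* (24.7 ± 14.8), *Rftn1* (18.1 ± 4.86) and *Cavin2* (14.9 ± 2.98 CPM per kb) came next and also overlapped. *Cavin3* (6.67 ± 1.44) and *Flot1* (5.94 ± 2.47 CPM per kb) were lowest. In HPβCD infarcts *Cavin1* stood second at 58.8 ± 11.2 CPM per kb, followed by *Cav1* at 39.4 ± 7.57. *Rftn1* (31.4 ± 3.79), *Flot2* (30.6 ± 8.22) and *Cav2* (26.9 ± 6.36 CPM per kb) were not separated beyond their spread. *Mal2* was last, at 3.83 ± 1.72 CPM per kb.

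Over the 8 libraries the 10 genes fell into patterns that are given as a description, since the libraries share treatment and tissue composition. *Rftn1* and *Pmp22* had a Pearson r of 0.97 on log2 CPM, *Cavin1* and *Pmp22* one of 0.97, and *Cavin1* and *Rftn1* one of 0.91. *Cav1* was closest to *Cavin2* (r = 0.845) and had an r of 0.53 with its neighbor *Cav2*. *Cavin3* ran with the flotillins (r = 0.847 with *Flot1* and 0.865 with *Flot2*), whereas *Cav2* ran against them (r = -0.89 with *Flot1*). *Mal2* ran against *Rftn1* (r = -0.91). Among 11243 genes whose mean reached 5 CPM, the profile most like that of *Cavin1* was that of *Agtrap* (r = 0.998), followed by *Lmx1b* (0.997) and *Slc6a8* (0.99). The closest to *Rftn1* were *Pyroxd2* (0.995), *Cd302* (0.992) and *Tgoln1* (0.99), and to *Pmp22* they were *Gpr137b-ps* (0.993), *Klf4* (0.992) and *Ano6* (0.992). *Mal2* was closest to *Peg3* (0.992), *Ncoa1* (0.991) and *Map3k13* (0.987). For *Cav1* they were *Cyyr1* (0.983), *Ttc37* (0.967) and *St6gal1* (0.959), and for *Cav2* *Prpf39* (0.988), *Arl14ep* (0.988) and *Dcun1d1* (0.986). *Flot1* was closest to *BC029722* (0.988), *Faap20* (0.983) and *Adprh* (0.979), and *Flot2* to *Abcf2* (0.992), *Hsp90ab1* (0.99) and *Cops7a* (0.987). The closest to *Cavin2* were *Gtpbp8* (0.962), *Pde3a* (0.96) and *Faf1* (0.96), and to *Cavin3* *Kctd6* (0.977), *Jagn1* (0.971) and *Rnf31* (0.97). The highest of so many correlations over 8 libraries is high in any case, and no function is drawn from it.

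Other genes of the same structures were read from the same fit. In 5 wider lists edgeR called 0 genes at an adjusted p of 0.05, beside 1.95% of all tested genes. The shares over all genes were 27.8% for an unadjusted p under 0.05 by edgeR and 17.5% for a DESeq2 call. Of 8 further caveola genes, 6 were tested, with 4 higher and 2 lower after HPβCD, a median log2 fold change of 0.17, 1 with an unadjusted p under 0.05 and 1 called by DESeq2. The most abundant were *Dnm2*, a dynamin that severs membrane necks (60.2 to 104 CPM in vehicle and 105 to 133 CPM in HPβCD, log2 fold change 0.41, edgeR adjusted p = 0.195), and the EHD ATPases *Ehd4* (log2 fold change 0.14, adjusted p = 0.732) and *Ehd1* (0.21, adjusted p = 0.524). *Dnm2* levels did not overlap between the groups. Their values without vehicle animals 1 and 3 were 0.20 for *Dnm2*, -0.14 for *Ehd4* and 0.08 for *Ehd1*. The gene called by DESeq2 was *Ehd2*, the caveola neck ATPase, named after its values were seen. It measured 19.7, 29.8, 23.7 and 27.5 CPM in vehicle and 59.2, 48.9, 40.5 and 34.8 CPM in HPβCD animals, without overlap (log2 fold change 0.86, SE 0.20; adjusted p = 0.0624 by edgeR and 0.00443 by DESeq2). Without vehicle animals 1 and 3 its log2 fold change was 0.69. The muscle forms *Cav3* and *Cavin4* had at most 4 and 5 counts in any library and were not tested.

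Of 9 flotillin relatives that share the SPFH domain, 8 were tested, with 3 higher and 5 lower, a median log2 fold change of -0.10, 1 with an unadjusted p under 0.05 and 0 called by DESeq2. *Stom*, encoding the raft protein stomatin, was the most abundant, at 156 to 299 CPM in vehicle and 295 to 367 CPM in HPβCD animals (log2 fold change 0.56, SE 0.20, and edgeR adjusted p = 0.123). *Erlin2* and *Erlin1*, which encode raft-like proteins of the endoplasmic reticulum, had log2 fold changes of 0.05 and 0.07. With vehicle animals 1 and 3 left out, *Stom* had a log2 fold change of 0.30, *Erlin2* one of -0.13 and *Erlin1* one of -0.06, and 4 genes were higher and 4 lower (median 0.00). Of 9 relatives of raftlin, MAL and PMP22, 8 were tested, with 4 higher and 4 lower, a median of 0.19, and 4 with an unadjusted p under 0.05, all 4 of them called by DESeq2. These were *Emp3* and *Myadm*, which were higher, and *Mal* and *Rftn2*, which were lower. *Emp3*, a PMP22 relative named after its values were seen, measured 25.9 to 38.8 CPM in vehicle and 42.0 to 65.1 CPM in HPβCD animals, without overlap (log2 fold change 0.88, SE 0.19; adjusted p = 0.0516 by edgeR and 0.00153 by DESeq2). *Myadm*, encoding a MARVEL-domain protein of rafts, differed by 0.67 on the log2 scale (SE 0.19; adjusted p = 0.0822 by edgeR), and *Emp1* by 0.52 (SE 0.40; adjusted p = 0.439 by edgeR). These differences without vehicle animals 1 and 3 were 0.53 for *Myadm* and 0.01 for *Emp1*, and 5 of the 8 genes were higher and 3 lower (median 0.02).

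*Mal*, encoding a raft protein of myelinating oligodendrocytes, measured 227, 141, 62.0 and 125 CPM in vehicle and 18.9, 22.6, 62.1 and 50.0 CPM in HPβCD animals. Vehicle animal 3 and HPβCD animal 3 had nearly equal levels, and the other animals of the groups were apart. The log2 fold change was -1.86 (SE 0.51), with an adjusted p of 0.0788 by edgeR and 0.00257 by DESeq2, and it was -1.78 without vehicle animals 1 and 3. The corresponding values of *Mal2* were -3.15 and -0.34. Mature oligodendrocyte markers, among them *Mbp*, summed to 1693 to 5329 CPM in vehicle and 431 to 2313 CPM in HPβCD animals, and their part in the *Mal* values was not tested.

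Among 10 Src family kinase and raft adaptor genes, all tested, 5 were higher and 5 lower (median log2 fold change 0.01), with 0 under an unadjusted p of 0.05 by edgeR and 0 called by DESeq2. The most abundant, *Lyn*, *Pag1* and *Fgr*, had log2 fold changes of 0.05, -0.26 and 0.35 (edgeR adjusted p = 0.927, 0.426 and 0.356). These were -0.23, -0.41 and 0.06 without vehicle animals 1 and 3, where 6 of the 10 were higher and 4 lower. Of 8 genes for GPI-anchored raft proteins, all tested, 3 were higher and 5 lower (median -0.31), with 1 under an unadjusted p of 0.05 and the same gene called by DESeq2. This was *Cd55*, a complement regulator named after its values were seen, with a log2 fold change of -0.97 (SE 0.30; adjusted p = 0.0889 by edgeR and 0.0332 by DESeq2). *Ly6e* was the most abundant, at 539 to 941 CPM in vehicle and 593 to 2437 CPM in HPβCD animals (log2 fold change 0.88, SE 0.40; edgeR adjusted p = 0.187). *Prnp*, the prion protein gene, and *Cd48* had log2 fold changes of -0.35 and 0.23 (edgeR adjusted p = 0.393 and 0.512). Leaving out vehicle animals 1 and 3 gave values of 1.01 for *Ly6e*, 0.15 for *Prnp*, 0.00 for *Cd48* and -1.30 for *Cd55*, and 4 genes were higher and 4 lower (median -0.05).

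Markers of the cells that carry caveolae were read from the same fit. edgeR called 0 of 10 endothelial, 1 of 9 pericyte and smooth muscle and 2 of 9 fibroblast markers, beside 1.95% of all tested genes. All 10 endothelial markers were higher in the HPβCD mean, and their sum was 497 to 597 CPM in vehicle and 567 to 979 CPM in HPβCD animals. The most abundant were *Cdh5* (log2 fold change 0.66, edgeR adjusted p = 0.0805) and *Flt1* (0.16, adjusted p = 0.703). All 9 tested pericyte and smooth muscle markers were higher, with sums of 433 to 642 CPM and 649 to 989 CPM. The called gene *Pdgfrb* rose (log2 fold change 1.18, edgeR adjusted p = 0.0483), beside a median log2 fold change of 0.44 in this list. *Rgs5*, the most abundant gene of the list, had a log2 fold change of 0.34 (edgeR adjusted p = 0.375). All 9 tested fibroblast markers were higher, with sums of 2659 to 6600 CPM in vehicle and 9503 to 10430 CPM in HPβCD animals. The collagen genes *Col1a2* (log2 fold change 1.46, edgeR adjusted p = 0.0462) and *Col1a1* rose, and *Dcn* had a log2 fold change of 0.80 (adjusted p = 0.129). When vehicle animals 1 and 3 were left out, 9 of 10 endothelial, 9 of 9 pericyte and smooth muscle and 8 of 9 fibroblast markers were higher, with log2 fold changes of 0.97 for *Pdgfrb*, 1.21 for *Col1a2* and 0.40 for *Dcn*. The fibroblast marker *Dpt* was below 1 CPM in all libraries. Of 10 macrophage and microglia markers, led by *C1qb* and *C1qc*, 8 were higher, with sums of 1983 to 3049 CPM and 2920 to 5501 CPM. edgeR called 0 of these 10 markers.

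Set against 100 CPM of summed fibroblast markers, *Cav1* was 2.23 to 3.15 CPM in vehicle and 1.03 to 1.79 CPM in HPβCD animals, *Cav2* was 1.79 to 2.96 and 0.588 to 1.18 CPM, and *Cavin2* was 0.838 to 1.34 and 0.321 to 0.665 CPM. On this scale all 3 were lower after HPβCD and the groups did not overlap. The fibroblast sums themselves did not overlap (2659 to 6600 CPM in vehicle and 9503 to 10430 CPM in HPβCD animals). A gene of equal level in all animals is therefore lower on this scale too, and the share of all genes that separate on it was not computed. *Cavin1* was 2.01 to 3.83 and 1.65 to 2.53 CPM on the same scale, *Rftn1* 1.51 to 2.11 and 1.23 to 1.63 CPM, and *Pmp22* 4.67 to 7.85 and 4.12 to 5.36 CPM, and for these the groups overlapped. Per 100 CPM of pericyte and smooth muscle markers *Cavin1* was 20.7 to 25.7 CPM in vehicle and 23.2 to 29.7 CPM in HPβCD animals. Against the same sum *Cav1* was 19.3 to 25.2 CPM in vehicle and 15.2 to 17.8 CPM in HPβCD animals, and *Cav2* was 17.1 to 25.3 and 9.45 to 15.1 CPM, without overlap. The pericyte and smooth muscle sums (433 to 642 and 649 to 989 CPM) did not overlap either, so the same limit holds. The groups overlapped for *Cavin2*, *Rftn1* and *Pmp22* on this scale. Against the endothelial or the macrophage sums the groups overlapped for *Cav1* (16.8 to 25.7 and 15.5 to 23.3 CPM per 100 CPM of endothelial markers), *Cav2*, *Cavin1*, *Cavin2*, *Rftn1* and *Pmp22*. *Mal2*, whose levels overlapped without such scaling, did not overlap against the endothelial sums (2.53 to 59.5 in vehicle and 0.886 to 2.24 CPM per 100 CPM in HPβCD animals). It did not overlap against the fibroblast or the pericyte and smooth muscle sums either, and overlapped against the macrophage sums. *Cavin3*, *Flot1* and *Flot2* overlapped on each of these scales. The part of cell composition in the differences was not tested.

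**Figure D4:**
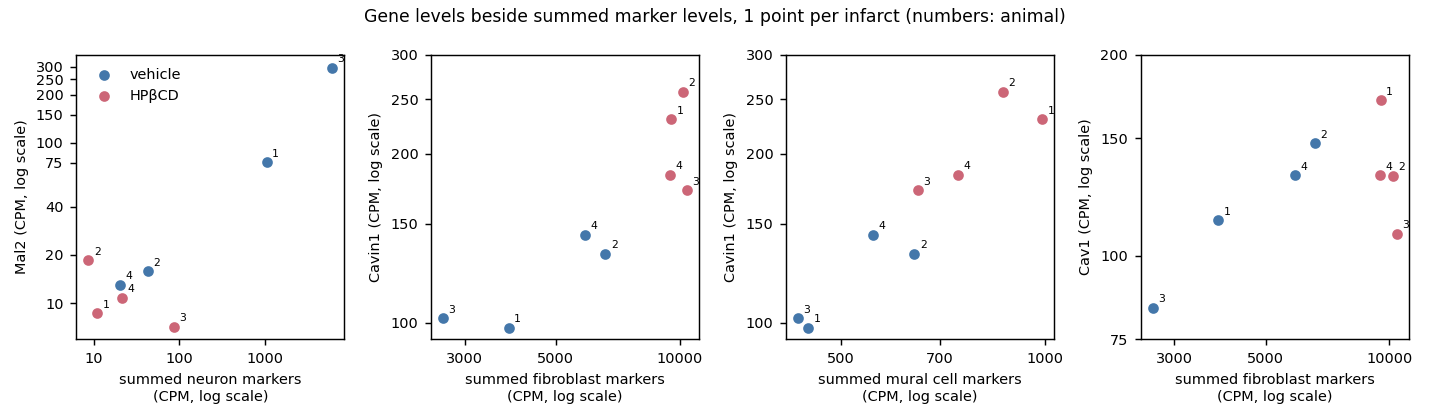
Level of *Mal2*, *Cavin1* or *Cav1* (y axes, CPM) beside the summed level of neuron, fibroblast or pericyte and smooth muscle (mural) markers (x axes, CPM), both on log scales, with 1 numbered point per infarct, vehicle in blue and HPβCD in red. *Mal2* is highest in vehicle animals 3 and 1, which have the highest neuron sums (6137 and 1047 CPM). *Cavin1* is higher in HPβCD animals, whose fibroblast sums (9503 to 10430 CPM) are all above those of vehicle, while *Cav1* levels of the groups overlap over the same range of sums.

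Markers of other cells known to use these genes were also read. Of 10 markers of B lymphocytes, the cells in which raftlin was first described, 9 were lower after HPβCD. The 10 markers summed to 221 to 681 CPM in vehicle and 150 to 271 CPM in HPβCD animals. The part of B lymphocytes in the *Rftn1* values was not tested. The most abundant B lymphocyte marker was *Ms4a1* (56.3 to 274 CPM in vehicle, 21.6 to 73.2 CPM in HPβCD), whereas *Cd22*, which microglia also express, was the 1 marker that was higher. Of the 10 B lymphocyte markers edgeR called 4, all lower after HPβCD, beside 1.95% of all tested genes. Schwann cell markers, beside *Pmp22*, summed to 125 to 162 CPM and 112 to 172 CPM, mostly *Mpzl2* and *Drp2*. Of 5 tested, 2 were higher and 3 lower, with a median log2 fold change of -1.50, and the sum followed *Mpzl2* (0.50; edgeR adjusted p = 0.24). *Cdh19*, at 9.67 to 18.8 CPM in vehicle and 1.84 to 5.44 CPM in HPβCD animals, fell by 2.11 on the log2 scale (edgeR adjusted p = 0.0483). *Drp2* had a log2 fold change of -1.67 (adjusted p = 0.0801 by edgeR and 0.00498 by DESeq2), and *Ncmap*, at about 1 CPM or less, one of -1.50 (edgeR adjusted p = 0.0636). Without vehicle animals 1 and 3 the values were -0.91 for *Drp2*, -1.96 for *Cdh19*, -1.21 for *Ncmap* and 0.18 for *Mpzl2*. *Cdh19* and *Ncmap* were named after their values were seen. The defining marker *Pmp2* was at 0 counts in all 8 libraries. Astrocyte markers, led by *Slc1a2* and *Gfap*, summed to 2777 to 10200 CPM in vehicle and 988 to 2866 CPM in HPβCD animals, with vehicle animals 1 and 3 highest. The sum of vehicle animal 3 was mostly *Slc1a2*, at 7431 of 10200 CPM. *Gfap* was 1451, 485, 296 and 1066 CPM in vehicle animals 1 to 4, lowest in vehicle animal 3. Other markers of the list differed in whether vehicle animal 3 was high or low. Of the 10 astrocyte markers 9 were lower over all 8 animals, with a median log2 fold change of -1.57 and 1 called by edgeR, beside 1.95% of all tested genes. Without vehicle animals 1 and 3 all 10 were lower, with a median of -1.02.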

How the data were processed

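Polyadenylated RNA of 8 infarcts was sequenced by the authors from strand-specific libraries. They used bcl2fastq 2.19, Trimmomatic 0.32, STAR 2.5.2b on GRCm38 and HTSeq, per the labels and the study's methods. The authors deposited raw counts per gene, without normalization. The strand option of the counting was not given in the sources used here. The 5 lines for reads assigned to no gene (26.6% to 36.6% of a library) were left out, and reads that align to several places are not counted. Symbols matched 45143 of 46078 identifiers. Coordinates are from GENCODE M21, and promoter windows are from RefSeq (GRCm38.p6).

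Groups and animal numbers came from the labels, which give no batch, and p-values measure the spread between these libraries. Genes were tested across the whole table with edgeR 4.0.16 (R 4.3.3; robust quasi-likelihood F test, TMM factors, filterByExpr, 14736 genes), with Benjamini-Hochberg adjustment and a threshold of 0.05. The alternatives were DESeq2 1.42.0, limma-voom (limma 3.58.1), other scalings, no filter, a replicate block, thinning to the smallest library and leaving out animals. A prior count of 2 entered log2 CPM. The procedure was tested on simulated data. The 10 genes and the lists were chosen with earlier results of these data known. All 10 are named, with the 3 most abundant tested genes and every called gene of each wider list, the 2 most abundant of each marker list, and for each of the 10 the 3 genes with the most similar log2 CPM among those with a mean of at least 5 CPM, except where a gene is said to have been chosen after its values were seen. Some marker genes are not reported here. All libraries differed from each other beyond sampling noise (lowest chi-square per degree of freedom 18.9).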

Additional observations from a re-analysis of the deposited data

How the results depend on the processing

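The number of tested genes called, 287 with edgeR, was 2911 with DESeq2, 3253 with limma-voom, 57 with upper quartile factors, 11 with library totals only and 1240 with DESeq2 without vehicle animals 1 and 3. It ranged from 0 to 629 when single animals were left out, 0 when vehicle animal 1 or 4 or HPβCD animal 2 or 3 was omitted, 4 when HPβCD animal 1 was, 556 when vehicle animal 2 was and 629 when vehicle animal 3 was. The cause was not tested. Of the 10 genes edgeR called 0 with each scaling, filter and left-out animal, whereas DESeq2 called 4, limma-voom 6 and DESeq2 without vehicle animals 1 and 3 called 3, the last chosen after seeing the data. The count of the 10 whose groups do not overlap was 3, beside 16.8% of all tested genes. It ranged from 3 to 6 when single animals were left out, with 6 without vehicle animal 3, beside 24.6% of tested genes. Without vehicle animals 1 and 3 it was 6, beside 32.9% of tested genes. *Cav1* turned from 0.19 to -0.03 without vehicle animals 1 and 3 (-0.028 by edgeR, -0.032 by DESeq2), and the other 9 genes kept their direction in all 18 alternatives. With library totals only, the median of all genes shifted to -0.13.

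With the animal number as a replicate block edgeR called 9 genes and 0 of the 10. The labels give the groups the same numbers without saying that they pair animals, and deviations of same-numbered animals correlated at -0.257, 0.244, 0.329 and 0.0975, with 2 of the 4 numbers correlating best with themselves, so the block was not used.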
